A study of Homo sapiens with 8 samples.

Results

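The SF3 splicing complex and U2AF are described here by 10 genes: PHF5A, SF3B1, SF3B2, SF3B3 and SF3B4 of the SF3B subcomplex, SF3A1, SF3A2 and SF3A3 of the SF3A subcomplex, and the U2AF subunits U2AF1 and U2AF2. PHF5A was the starting point because its RNA fell after GPX1 depletion in both cell lines of the study, and the other 9 were added for belonging to the same assembly, whatever their own change. All 10 were among the 23686 genes listed and among the 14249 with enough reads to be tested. RNA was sequenced from HS578T and MDA-MB-231, human breast cancer cell lines labelled triple-negative, that is, low in the estrogen, progesterone and HER2 receptors. Each line gave 2 control libraries and 2 libraries titled siGpx1, in which GPX1, a selenium-containing peroxidase that removes hydrogen peroxide, had been depleted. The titles name an siRNA and the genotype label of the same samples reads Gpx1-/-. The labels name neither the control reagent nor the siRNA, and every group is a culture of 1 established line. In the source and tissue labels the number at the end of the line name goes up by 1 with each sample, while titles and the cell line tag give a single line, and the latter were followed. The design compares control with depleted cells within each line.

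Introns are removed by the spliceosome, which is built on each pre-mRNA from small nuclear ribonucleoproteins (snRNPs). U2AF binds the end of the intron: U2AF2 reads the polypyrimidine tract and U2AF1 the AG dinucleotide at the 3′ splice site. It helps the U2 snRNP to settle on the branch point adenosine, which SF3B clamps against U2 RNA with SF3B1 and PHF5A lining the pocket, while SF3A bridges SF3B to the rest of the particle. SF3B1 and U2AF1 are recurrently mutated in cancers, SF3B1 and PHF5A together form the binding site of splicing inhibitor drugs, and PHF5A has also been described as a partner of the PAF1 complex of transcribing RNA polymerase II.

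Depletion was visible in every library labelled for it. GPX1 had 1117 and 1074 estimated counts in the HS578T controls against 42 and 42 in the siGpx1 libraries, and 2944 and 3223 against 108 and 95 in MDA-MB-231, so that 4.16 and 3.50% of the control level were left. The libraries held 12905808 to 14216365 estimated counts and detected 15573 to 15805 genes. Nothing in the labels says that replicates were separate cultures, so each p-value measures no more than how these libraries scatter, and part of that scatter may be technical. The cells are labelled epithelial, but in HS578T controls CDH1 was at 0 and EPCAM at 0.078 CPM (counts scaled to the library total after adjustment by edgeR's TMM factor), and averaged over a line's 4 libraries 3 of 7 epithelial markers exceeded 1 CPM, against 5 of 7 in MDA-MB-231. All 4 mesenchymal markers exceeded it in both lines. Summed epithelial markers ranged from 236 to 240 CPM in HS578T controls and from 614 to 679 in its siGpx1 libraries, mostly KRT18, and from 1032 to 1033 against 1616 to 1661 in MDA-MB-231. Summed mesenchymal markers were also higher after depletion, from 2479 to 2499 CPM in MDA-MB-231 controls against 3123 to 3153, and from 43380 to 44210 against 55210 to 61570 in HS578T. These sums were mostly FN1 and VIM, which rose in both lines, as did CDH2. ZEB1 went the other way, with group means of 118 against 99.6 CPM in HS578T and 91.9 against 80.8 in MDA-MB-231. The part of these shifts in the results below was not tested. Of the leukocyte markers CD3E was at 0 in all 4 groups, while CD14 stood at 3.76 to 7.52 and CD68, a lysosomal protein that other cells also make, at 50.1 to 111 CPM in the group means. In bulk RNA, fewer cells with a transcript and less of it per cell cannot be told apart.

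An earlier search of these libraries selected 4 sequences of 7 bases for the lower values of genes that hold them in the 3′ UTR: GGGCATC and the overlapping GGCATCA, and as another pair ACTTCGA and the overlapping TACTTCG. The 3′ UTRs were therefore read for these letters, with results given for the 9 genes other than PHF5A, in transcripts of GENCODE 29, a gene annotation on build GRCh38. SF3B3, the gene of the set with the highest log2 change, holds a match and is shown beside GPX1, which has the same letters in its coding sequence. Capitals mark the match, and each sequence is given 5′ to 3′ on the gene's own strand.
SF3B3: ttgaaagaaagGGGCATCAttccaagccaa
GPX1: gcaaccagtttGGGCATCAggtgcgccggg
The SF3B3 stretch lies at chr16:70577276-70577305 on the plus strand (GRCh38), in a 3′ UTR of 5855 bases, and holds all 8 letters shared with GPX1. The GPX1 stretch lies at chr3:49358017-49358046 on the minus strand, in the coding sequence of ENST00000419349, and its 8 letters occur in 5 of 6 GPX1 transcripts of that annotation. In the other transcripts that hold them, an exon junction falls within the stretch, and the bases after the match differ from those shown. None of the other 8 genes holds GGGCATC or GGCATCA, which overlap by 6 bases, and 0 of these 9 hold ACTTCGA or TACTTCG. Among 13074 tested genes with a 3′ UTR of at least 30 bases, 14% hold one or the other of the first pair, 2.52% the joined 8 bases and 2.59% one of the second pair. Among splicing genes outside the set that are named below, DDX23, LUC7L and HNRNPA0 hold GGGCATC, TIA1 holds GGCATCA, HNRNPA1 holds TACTTCG, and BCAS2 holds none of the 4. The 9 genes given leave out PHF5A, so nothing is read from the set about matches and changes. The letters were selected on the same libraries, only the transcript strand was searched, and a match is a description of sequence.

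PHF5A, the small zinc-containing subunit beside the branch point pocket of SF3B1, had the lowest level of the 10 genes in all 4 siGpx1 libraries. In TPM (transcripts scaled to the library total), a level per length that can be compared between genes, it stood at 75.2 and 66.0 in the HS578T controls and at 11.3 and 16.7 after depletion. In MDA-MB-231 it stood at 75.4 and 83.2 in the controls and at 15.4 and 14.0 after depletion. The siGpx1 libraries lay far below the controls of their line with no overlap. Between the lines, the control ranges overlapped in CPM (28.1 to 31.8 in HS578T and 28.9 to 32.1 in MDA-MB-231). In TPM those of HS578T ended just below those of MDA-MB-231. In CPM the mean went from 29.9 to 6.17 in HS578T, 20.7% of control, a log2 change of -2.27 ± 0.14 (SE, n = 2 against 2). It went from 30.5 to 5.61 CPM in MDA-MB-231, 18.4% of control, a log2 change of -2.44 ± 0.13. By absolute log2 change PHF5A ranked 241 of 14249 genes in HS578T and 93 in MDA-MB-231. These changes chose the set, so they are given without a test. The estimate rested on 58 and 91 estimated counts in the HS578T siGpx1 libraries, where the pair of replicates differed most, and it lay between -2.61 without the second and -2.02 without the first.

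**Figure D1:**
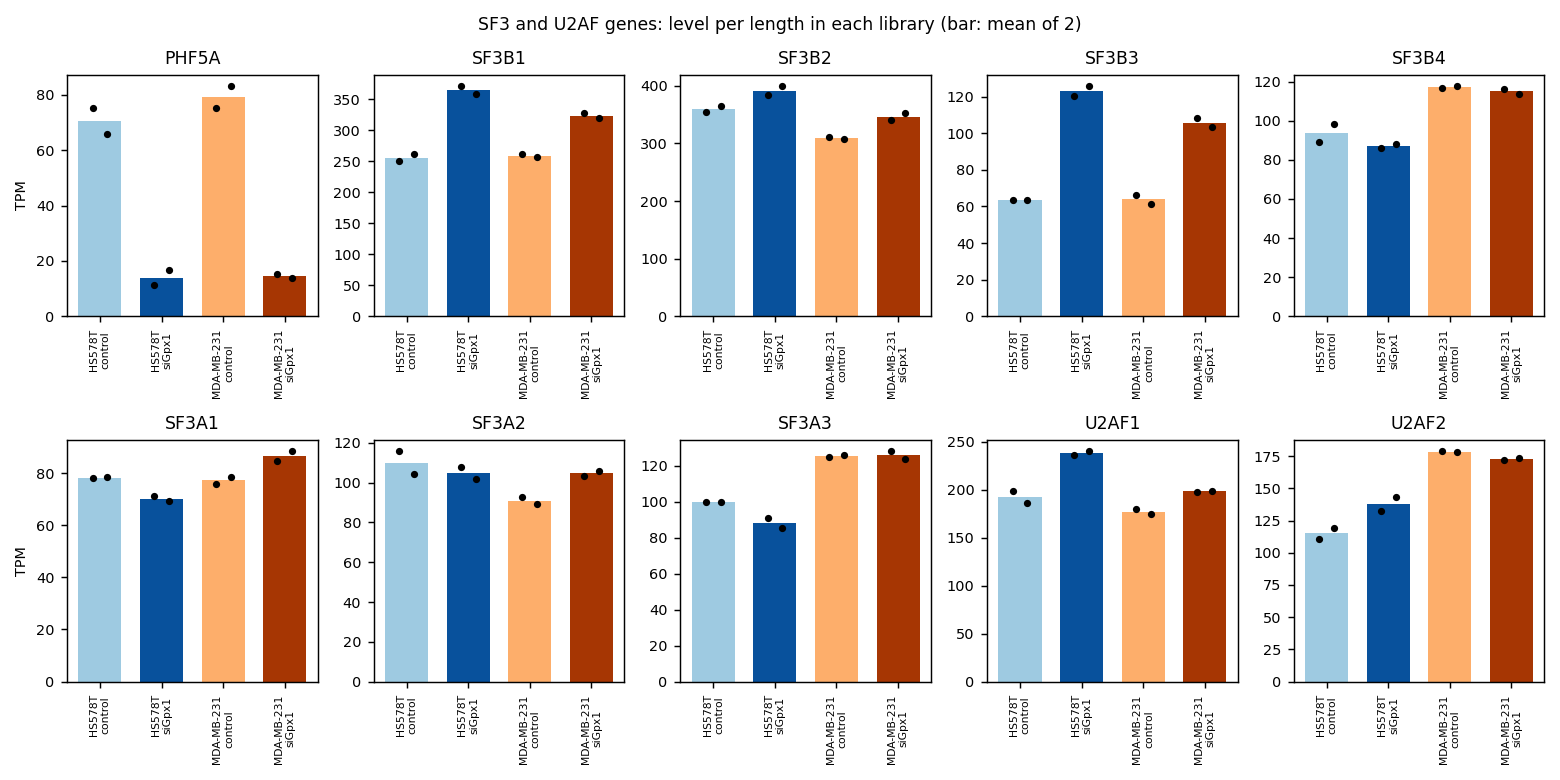
Level of each of the 10 genes in TPM (vertical axis, linear from 0, its own scale per panel) in the 4 groups, with a point for each library and a bar for the mean of 2. PHF5A drops from 66.0 to 83.2 TPM in controls to 11.3 to 16.7 TPM in siGpx1 libraries, while SF3B3 goes from 61.6 to 66.2 up to 103 to 126 TPM.

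SF3B3, the large beta-propeller protein on which SF3B1 and PHF5A sit, rose in both lines. It measured 63.5 and 63.3 TPM in the HS578T controls and 120 and 126 after depletion, and 66.2 and 61.6 against 108 and 103 in MDA-MB-231. Neither line's groups overlapped. The mean rose from 256 to 516 CPM in HS578T, 2.01-fold, with a log2 change of 1.01 ± 0.04 (adjusted p = 2.03e-11 edgeR, quasi-likelihood, Benjamini-Hochberg over 14249 genes, as for every adjusted p here). In MDA-MB-231 it rose from 235 to 387 CPM, 1.65-fold, with a log2 change of 0.72 ± 0.04 (adjusted p = 1.58e-09). The ratio of SF3B3 to PHF5A in TPM, part of which the choice of PHF5A fixes, was 0.844 and 0.960 in HS578T controls and 10.7 and 7.52 after depletion. In MDA-MB-231 the ratio was 0.878 and 0.740 in controls and 7.04 and 7.39 after depletion.

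SF3B1, the HEAT-repeat scaffold that closes around the branch point helix, also rose in both lines. It measured 250 and 262 TPM in HS578T controls and 372 and 359 after depletion. In MDA-MB-231 the levels were 262 and 256 TPM in controls against 328 and 319 after depletion, so that control and siGpx1 libraries stayed apart in both lines. The rise was to 149.6% of control in HS578T (log2 change 0.58 ± 0.03, adjusted p = 1.29e-09) and 1.25-fold in MDA-MB-231 (log2 change 0.32 ± 0.03, adjusted p = 1.58e-06).

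SF3B2, which ties SF3B to other U2 proteins and to the pre-mRNA near the branch point, was the most abundant of the 10 per length in all 4 groups. It measured 354 and 364 TPM in HS578T controls and 384 and 400 after depletion, against 311 and 308 and then 340 and 353 in MDA-MB-231. Its rises were small, with log2 changes of 0.18 ± 0.04 (adjusted p = 9.32e-04) and 0.15 ± 0.04 (adjusted p = 0.00386). SF3B4, an RNA-binding subunit that contacts the pre-mRNA upstream of the branch point, passed in neither line. It measured 89.1 and 98.2 TPM in HS578T controls and 86.0 and 88.0 after depletion, and 117 and 118 against 116 and 114 in MDA-MB-231. Its log2 changes were -0.05 ± 0.06 (adjusted p = 0.49) and -0.03 ± 0.05 (adjusted p = 0.663).

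The 3 SF3A genes moved little. SF3A1, whose ubiquitin-like domain also contacts U1 RNA, measured 78.0 and 78.5 TPM in HS578T controls and 71.0 and 69.3 after depletion. In MDA-MB-231 it measured 75.9 and 78.5 TPM in controls and 84.7 and 88.3 after depletion, so that siGpx1 libraries lay below the controls in one line and above them in the other. The log2 change was -0.10 ± 0.04 in HS578T (adjusted p = 0.044) and 0.16 ± 0.04 in MDA-MB-231 (adjusted p = 0.00454). SF3A3, a zinc finger subunit of SF3A, fell by 0.13 ± 0.04 on the log2 scale in HS578T (adjusted p = 0.0248) and did not pass in MDA-MB-231 (adjusted p = 0.985). Its levels were 100.04 and 99.9 TPM against 91.2 and 85.6 in HS578T, and 125 and 126 against 128 and 124 in MDA-MB-231. SF3A2, another zinc finger subunit, measured 116 and 104 TPM against 108 and 102 in HS578T, where the groups overlapped, and 92.6 and 89.0 against 103 and 106 in MDA-MB-231, where they did not. It rose in MDA-MB-231 by 0.20 ± 0.06 (adjusted p = 0.0174) and did not pass in HS578T (-0.01 ± 0.06, adjusted p = 0.892). The HS578T falls of SF3A1 and SF3A3 were both lost by DESeq2 (adjusted p = 0.0894 and 0.072). They were lost too without control replicate 1 (0.0926 and 0.079), control replicate 2 (0.14 and 0.0827) or siGpx1 replicate 2 of HS578T (0.0717 and 0.12). SF3A1 shares 218 exonic bases with CCDC157 and SF3A2 shares 398 with PLEKHJ1, each on the opposite strand, and the strand setting of the counting is not given in the sources used here, so reads there may be shared between the genes.

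U2AF1 rose in both lines and U2AF2 in HS578T. U2AF1 measured 199 and 186 TPM in HS578T controls and 236 and 240 after depletion, and 180 and 175 against 198 and 199 in MDA-MB-231. Its log2 change was 0.36 ± 0.05 in HS578T (adjusted p = 3.15e-05) and 0.15 ± 0.05 in MDA-MB-231 (adjusted p = 0.0312, lost by DESeq2 at 0.0559 and without MDA-MB-231 control replicate 2 at 0.0583). U2AF2 measured 111 and 119 TPM in HS578T controls and 132 and 144 after depletion, a log2 change of 0.31 ± 0.05 (adjusted p = 6.01e-05). In MDA-MB-231 it measured 179 and 178 TPM against 172 and 174, a log2 change of -0.05 ± 0.05 (adjusted p = 0.379). A near-identical copy of U2AF1 exists in some genome builds, and how the counting treated it is not given in the sources used here.

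**Figure D2:**
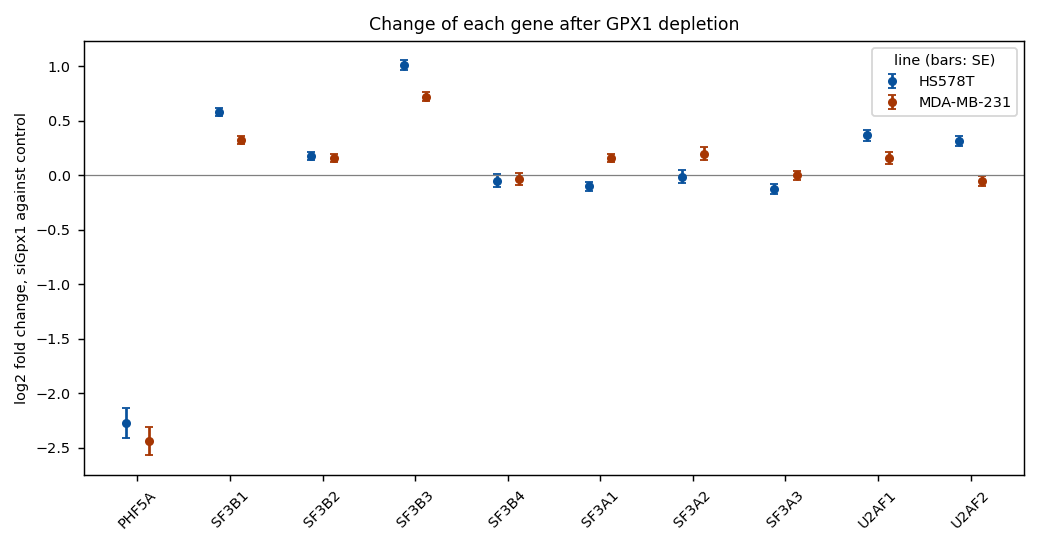
Log2 fold change of siGpx1 against control for each gene (vertical axis) in HS578T and MDA-MB-231, with bars for the standard error. PHF5A lies at -2.27 and -2.44 and SF3B3 at 1.01 and 0.72, and the other 8 genes lie between -0.13 and 0.58.

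Leaving out PHF5A, 5 of 9 genes rose in HS578T (55.6%) and 2 fell (22.2%), where 28.6% of all tested genes rose and 22.1% fell. In MDA-MB-231, 6 of 9 rose (66.7%) and 0 fell, where 20.7% of all tested genes rose and 21.9% fell. The median log2 change of the 9 was 0.18 in HS578T against 0.04 over all tested genes, and 0.15 in MDA-MB-231 against 0. SF3B1, SF3B2 and SF3B3 were called higher in each line under all 15 alternative analyses, as were U2AF1 and U2AF2 in HS578T and SF3A1 and SF3A2 in MDA-MB-231. Among the SF3B genes of the set, PHF5A included, SF3B1 and SF3B2 made up most of the transcripts. The summed level of SF3B1, SF3B2, SF3B3, SF3B4 and PHF5A was higher after depletion, at 832 and 854 TPM in HS578T controls against 973 and 989, and 832 and 827 against 908 and 904 in MDA-MB-231. Left out of this sum are SF3B5 and SF3B14, described below, which lie outside the set. Summed U2AF levels were 310 and 305 TPM against 368 and 383 in HS578T, and 358 and 353 against 370 and 372 in MDA-MB-231.

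The order of levels per length changed mainly through PHF5A and SF3B3. In HS578T controls the mean TPM ran SF3B2 359, SF3B1 256, U2AF1 192, U2AF2 115, SF3A2 110.0, SF3A3 99.96, SF3B4 93.7, SF3A1 78.2, PHF5A 70.6 and SF3B3 63.4. The SDs of the neighbours U2AF2 and SF3A2 (5.81 and 8.19, n = 2) and of SF3A3 and SF3B4 (0.113 and 6.45) reach across their gaps, so these neighbours were not told apart. After depletion in HS578T, SF3B3 moved up to 123 ± 3.90 (SD, n = 2), between U2AF2 and SF3A2, and PHF5A was last at 14.0 ± 3.86. In MDA-MB-231 controls SF3B2 (310 ± 2.18) and SF3B1 (259 ± 4.26) again led, and the pairs U2AF2 and U2AF1 (179 ± 0.247 and 177 ± 3.44) and PHF5A and SF3A1 (79.3 ± 5.49 and 77.2 ± 1.82) overlapped. After depletion in MDA-MB-231, SF3B3 (106 ± 3.37) overlapped SF3A2 (105 ± 1.89) and PHF5A was last at 14.7 ± 0.969.

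The response of 4 genes differed between the lines by a test of the difference itself, the line-by-depletion interaction, given as the MDA-MB-231 change minus the HS578T change. It was -0.26 ± 0.05 for SF3B1 (adjusted p = 0.00174), -0.29 ± 0.06 for SF3B3 (adjusted p = 0.00311), -0.37 ± 0.07 for U2AF2 (adjusted p = 0.00144) and 0.26 ± 0.06 for SF3A1 (adjusted p = 0.00504). Of the 9 genes 1 was thus higher (11.1%) and 3 lower (33.3%), against 6.32 and 10.7% of all tested genes. SF3A1 kept its call in all 14 alternatives, with a highest adjusted p of 0.024. SF3B1 lost it without any 1 of the MDA-MB-231 libraries (adjusted p = 0.0704 to 0.144). SF3B3 lost it by limma on TPM (0.0615) and without MDA-MB-231 control replicate 1 (0.177), siGpx1 replicate 1 (0.0562) or siGpx1 replicate 2 (0.165), and U2AF2 without MDA-MB-231 control replicate 2 (0.0507) or siGpx1 replicate 1 (0.0615). For PHF5A the difference was -0.17 ± 0.21, given without a test, and it turned to 0.17 without HS578T siGpx1 replicate 2 and 0.01 without MDA-MB-231 control replicate 2.

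Between the control libraries PHF5A did not pass the test and the other 9 members did. The comparison of control MDA-MB-231 with control HS578T was not used in the choice of members. There PHF5A differed by 0.03 ± 0.10 on the log2 scale (adjusted p = 0.817), and its libraries overlapped in CPM. U2AF2 was higher in MDA-MB-231 by 0.50 ± 0.05 (adjusted p = 8.27e-08), with SF3A3 higher by 0.19 ± 0.04 (adjusted p = 5.08e-04) and SF3B4 by 0.19 ± 0.06 (adjusted p = 0.00577, lost in 7 of 14 alternatives). SF3A2 was lower, with a difference of -0.41 ± 0.06 (adjusted p = 1.41e-05), and so were SF3B2 at -0.35 ± 0.04 (adjusted p = 4.05e-07) and U2AF1 at -0.26 ± 0.05 (adjusted p = 3.90e-04). SF3A1 (-0.15, adjusted p = 0.00226), SF3B1 (-0.10, adjusted p = 0.0109) and SF3B3 (-0.12, adjusted p = 0.0158) were lower too. By limma on TPM all 3 lost the call, SF3A1 at -0.02 (adjusted p = 0.67) and the last pair with turned signs at 0.02 and 0.01, and without HS578T control replicate 2 SF3B1 and SF3B3 lost it as well (adjusted p = 0.0858 and 0.0538). In all, 3 of 10 were higher and 6 lower, where 43.0% of all tested genes were higher and 38.6% lower. These comparisons share their control libraries with those above.

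Genes outside the set whose values over the 8 libraries were closest to PHF5A were found by the root mean square difference in log2 CPM, each gene centred on its own mean, among 11293 genes. The nearest were SLC30A9, a zinc transporter family protein (0.231, Pearson r = 0.985), UQCRHL (0.257), MYD88, the adaptor of Toll-like and interleukin-1 receptors (0.262), UQCRH, a subunit of respiratory complex III (0.266), and LYRM1 (0.283). UQCRHL and UQCRH are near-identical copies, so their separate estimates are uncertain. Their log2 changes in HS578T and MDA-MB-231 were -2.08 and -2.17 for SLC30A9, -2.05 and -1.97 for MYD88 and -2.19 and -2.01 for LYRM1. The likeness is dominated by the fall after depletion that chose PHF5A, and it is a description over 8 libraries that share 4 groups.

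The closest partners of the set are the 13 other U2 snRNP proteins, of which 7 rose and 2 fell in HS578T and 5 rose and 3 fell in MDA-MB-231. For this and the lists that follow, the shares over all tested genes are 28.6% higher and 22.1% lower in HS578T, and 20.7% higher and 21.9% lower in MDA-MB-231. SF3B5, the small subunit that sits against SF3B3, measured 19.0 and 18.3 CPM in HS578T controls and 46.2 and 51.6 after depletion, and 18.9 and 21.3 against 48.9 and 44.4 in MDA-MB-231. It rose 2.63-fold (log2 change 1.39 ± 0.09, adjusted p = 2.14e-09) and 2.32-fold (1.21 ± 0.08, adjusted p = 8.02e-09), with no overlap between groups in either line. CHERP, a U2-associated RNA-binding protein, measured 30.3 and 32.5 CPM against 62.6 and 68.1 in HS578T and 42.4 and 38.6 against 89.2 and 83.3 in MDA-MB-231. Its log2 changes were 1.06 ± 0.08 (adjusted p = 1.15e-08) and 1.09 ± 0.07 (adjusted p = 4.10e-09), and it shares 966 exonic bases with C19orf44 on the opposite strand. SF3B14, the older symbol of SF3B6, which touches the branch point, fell by 0.38 ± 0.06 (adjusted p = 1.40e-04) and fell by 0.33 ± 0.06 (adjusted p = 6.87e-04). SUGP1, a G-patch protein that works with SF3B1 in branch point choice, fell by 0.35 ± 0.08 and fell by 0.32 ± 0.07. The SF3B genes thus split, with SF3B3 and SF3B5 up by the most, SF3B1 and SF3B2 up by less, SF3B4 not passing, and SF3B14 and PHF5A lower.

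Among 6 other branch point and 3′ splice site factors, 2 rose and 1 fell in HS578T, and 1 rose and 1 fell in MDA-MB-231. RBM39, a U2AF2-related splicing factor, rose by 0.52 ± 0.04 (adjusted p = 9.43e-08) and 0.48 ± 0.04 (adjusted p = 1.55e-07), and PUF60, which binds polypyrimidine tracts with U2AF2, rose by 0.21 ± 0.04 in HS578T and did not pass in MDA-MB-231 (0.05 ± 0.05, adjusted p = 0.438). DDX39B, the helicase that U2AF2 recruits, fell by 0.30 ± 0.04 and fell by 0.45 ± 0.04, though a read-through gene with 1506 shared bases is listed separately and its reads may be split.

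Of 9 genes of the U1 snRNP, which marks the 5′ splice site, and its partners, 5 rose and 1 fell in HS578T and 3 rose and 3 fell in MDA-MB-231. TIA1, an RNA-binding protein that helps U1 to weak 5′ splice sites, measured 90.05 and 92.7 CPM against 55.4 and 52.7 in HS578T and 41.4 and 38.4 against 22.6 and 20.4 in MDA-MB-231. It fell by 0.76 ± 0.06 (adjusted p = 7.26e-08) and fell by 0.89 ± 0.08 (adjusted p = 1.37e-07). PRPF39 rose by 0.46 ± 0.08 and 0.46 ± 0.07 and LUC7L2, a U1-associated protein, by 0.23 ± 0.06 and 0.14 ± 0.05. SNRPA, a U1 core protein, rose by 0.30 ± 0.07 in HS578T and did not pass in MDA-MB-231 (0.04 ± 0.07), and LUC7L fell by 0.32 ± 0.07 in MDA-MB-231 and did not pass in HS578T (-0.09 ± 0.09). Of the 7 Sm proteins, the ring shared by the spliceosomal snRNPs, 0 rose in either line, 1 fell in HS578T and 4 fell in MDA-MB-231, among them SNRPE (-0.35 ± 0.07) and SNRPF (-0.31 ± 0.07). In HS578T SNRPF also fell (-0.25 ± 0.09, adjusted p = 0.0231) and SNRPE did not pass (0.04 ± 0.09).

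Of the 22 genes of U5 and the tri-snRNP, 6 were higher in HS578T (27.3%, near the 28.6% of all genes) and 7 lower (31.8%, beside 22.1%). In MDA-MB-231, 3 were higher (13.6%, beside 20.7%) and 7 lower (31.8%, beside 21.9%). LSM4, of the ring on U6 RNA, fell by 0.93 ± 0.07 in HS578T (adjusted p = 2.08e-08) and fell by 0.39 ± 0.06 in MDA-MB-231 (adjusted p = 9.46e-05). NHP2L1, which binds U4 RNA, fell by 0.42 ± 0.05 and fell by 0.43 ± 0.04 in the lines in that order. LSM3 rose by 0.27 ± 0.07 and 0.27 ± 0.07 and the isomerase PPIH by 0.30 ± 0.08 and 0.34 ± 0.07, while SNRNP40 of U5 rose by 0.32 ± 0.06 in HS578T and missed in MDA-MB-231 (0.14 ± 0.06, adjusted p = 0.0564). DDX23, the helicase that helps to hand the 5′ splice site from U1 to U6, measured 79.4 and 77.6 CPM against 53.0 and 52.5 in HS578T, and 112 and 114 against 75.9 and 77.9 in MDA-MB-231. Its falls of 0.57 ± 0.05 and 0.56 ± 0.05 passed in both lines (adjusted p = 2.04e-07 and 1.20e-07).

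Among 26 genes of the PRP19 complex and the catalytic steps, 13 rose and 5 fell in HS578T and 7 rose and 5 fell in MDA-MB-231. BCAS2, a core PRP19 complex subunit, measured 63.5 and 60.7 CPM in HS578T controls and 18.4 and 17.7 after depletion, and 56.5 and 55.3 against 20.6 and 20.1 in MDA-MB-231. The groups lay far apart in both lines, and it fell by 1.78 ± 0.07 (adjusted p = 1.03e-11) and fell by 1.46 ± 0.07 (adjusted p = 8.22e-11). PPIL1, a proline isomerase of the activated spliceosome, fell by 0.87 ± 0.07 and fell by 0.84 ± 0.05, whereas BUD31 rose by 0.50 ± 0.07 and 0.51 ± 0.07, with 385 bases shared with PTCD1 on the opposite strand. SLU7, which acts in the choice of the 3′ splice site at the last step, rose by 0.46 ± 0.06 in HS578T and 0.27 ± 0.06 in MDA-MB-231, and XAB2 by 0.35 ± 0.07 and 0.42 ± 0.07. In the minor spliceosome, 1 of 7 genes rose and 1 fell in HS578T and 3 rose and 1 fell in MDA-MB-231. PDCD7 of the U11/U12 particle rose by 0.74 ± 0.10 (adjusted p = 1.49e-05) and 0.73 ± 0.08 (adjusted p = 2.89e-06). SNRNP25 fell by 0.46 ± 0.12 and fell by 0.28 ± 0.10, and SNRNP48 rose by 0.36 ± 0.07 in MDA-MB-231 and did not pass in HS578T (-0.07 ± 0.07).

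**Figure D3:**
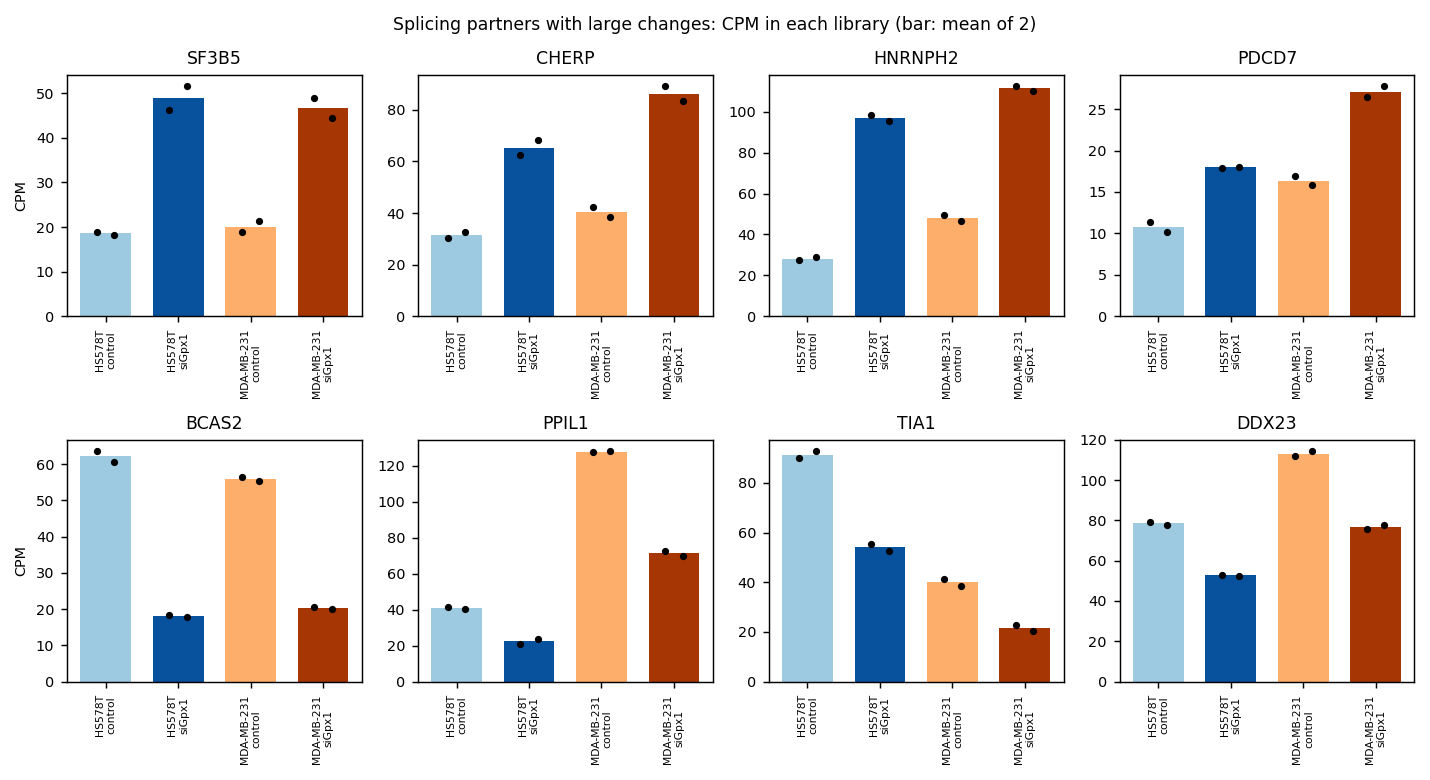
Level in CPM (vertical axis, linear from 0, its own scale per panel) of 8 splicing genes outside the set, with a point for each library and a bar for the mean of 2. SF3B5, CHERP, HNRNPH2 and PDCD7 are higher and BCAS2, PPIL1, TIA1 and DDX23 lower in the siGpx1 libraries of each line, with no overlap.

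Most regulators of splice site choice were higher in both lines. Of 13 SR proteins, which bind exonic enhancers, 10 rose (76.9%, beside 28.6% of all genes) and 0 fell in HS578T, and 8 rose (61.5%, beside 20.7%) and 1 fell in MDA-MB-231. SRSF7 rose by 0.43 ± 0.05 and 0.28 ± 0.05, and SRSF3 by 0.41 ± 0.03 and 0.24 ± 0.03, while SRSF8 fell by 0.52 ± 0.07 in MDA-MB-231 and did not pass in HS578T (-0.06 ± 0.06). Of 23 hnRNP proteins, which coat pre-mRNA and often oppose SR proteins, 19 rose (82.6%) and 2 fell in HS578T and 13 rose (56.5%) and 2 fell in MDA-MB-231. HNRNPH2 measured 27.4 and 28.9 CPM against 98.3 and 95.7 in HS578T and 49.7 and 46.5 against 113 and 110.4 in MDA-MB-231, rising 3.45-fold (adjusted p = 2.93e-12) and 2.32-fold (adjusted p = 8.73e-11). HNRNPA0 rose by 0.54 ± 0.04 and 0.23 ± 0.04 and HNRNPL by 0.46 ± 0.05 and 0.29 ± 0.05. For HNRNPH2, a read-through gene with RPL36A is listed beside it and shares 362 bases. HNRNPM fell by 0.49 ± 0.04 (adjusted p = 5.28e-08) and fell by 0.60 ± 0.04 (adjusted p = 8.00e-09), and HNRNPA1, which has many pseudogenes, fell by 0.15 ± 0.03 in HS578T and did not pass in MDA-MB-231 (0.03 ± 0.03). HNRNPAB fell by 0.11 ± 0.04 in MDA-MB-231 (adjusted p = 0.0439) and did not pass in HS578T (0.06 ± 0.04). In the PAF1 complex, 2 of 6 genes rose and 1 fell in HS578T and 3 rose and 1 fell in MDA-MB-231, with RTF1 higher by 0.54 ± 0.06 and 0.24 ± 0.05, CTR9 by 0.43 ± 0.04 and 0.27 ± 0.04, LEO1 by 0.34 ± 0.07 in MDA-MB-231 (0.14 ± 0.08 and not passing in HS578T) and PAF1 lower at -0.14 ± 0.05 and -0.16 ± 0.05. SF3A3, BCAS2, BUD31, DDX39B, PPIL1, PPIH, LSM3, SNRPE, SNRPF, HNRNPM, HNRNPL, HNRNPAB and UQCRH also have copies annotated as pseudogenes in GENCODE 29. SUGP1 shares 164 exonic bases with MAU2 and LSM3 shares 318 with XPC on the opposite strand, and LUC7L2 shares 1377 with a read-through gene. The counts of all these genes carry that uncertainty.

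**Figure D4:**
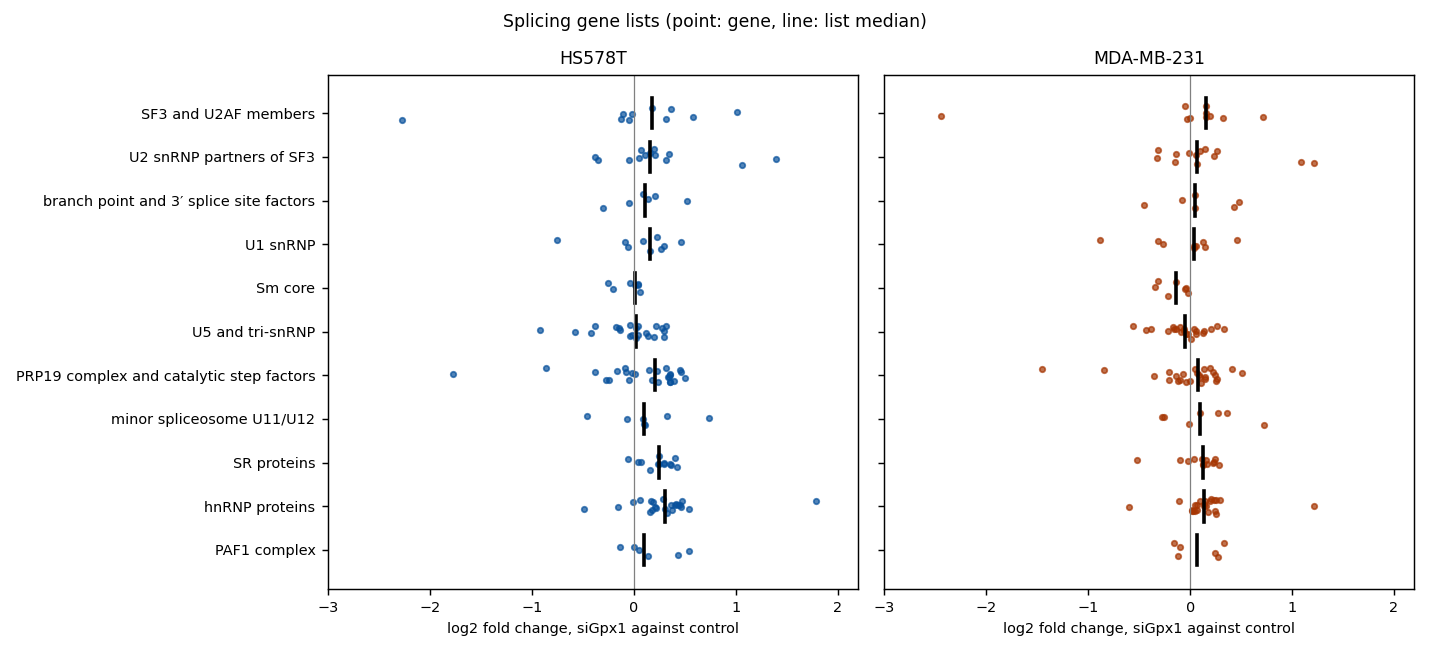
Log2 fold change of siGpx1 against control (horizontal axis) for each gene of the set and of 10 lists of splicing and PAF1 complex genes in HS578T (left) and MDA-MB-231 (right), with a black line for the list median. The line of the first row leaves out PHF5A, the point at -2.27 and -2.44, and lies at 0.18 and 0.15, and those of the hnRNP proteins lie at 0.30 and 0.14.

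Over all these lists, 65 of 132 genes rose (49.2%) and 21 fell (15.9%) in HS578T, and 46 rose (34.8%) and 28 fell (21.2%) in MDA-MB-231. The median log2 change was 0.16 in HS578T and 0.06 in MDA-MB-231, beside 0.04 and 0 over all tested genes. The number that fell in MDA-MB-231 was 14 by DESeq2 and 14, 15, 17 and 17 without each MDA-MB-231 library in turn. None of these genes was among the 5 closest to PHF5A. Of 130 list genes with a 3′ UTR, 12 hold GGGCATC or GGCATCA, and of these 5 passed the test in HS578T (3 lower, 2 higher) and 6 in MDA-MB-231 (5 lower, 1 higher). The other pair, ACTTCGA or TACTTCG, is held by 6, of which 1 was lower and 4 higher in HS578T, and 0 lower and 1 higher in MDA-MB-231. The shares over all tested genes are those given above: 22.1% lower and 28.6% higher in HS578T, and for MDA-MB-231 21.9 and 20.7%. The letters were selected for lower values in these same libraries. Counts of lower holders therefore restate that choice in part, and nothing is read from them.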

How the data were processed

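Per the submitters' processing notes, read quality was checked with FastQC and genes were quantified with RSEM 1.2.12 on build hg19. The sources used here give no aligner and no strand setting. Expected counts, which the authors deposited, are RSEM's estimates of reads per gene, 94.8% of the nonzero ones whole, and were rounded. Deposited TPM values, per the headers' effective lengths, divide these estimates by effective length. The deposited FPKM values were not used.

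The members and gene lists were chosen with earlier results of these data known, and so were the 3′ UTR letters. Groups came from the titles, which match the cell line tag. Genes kept by filterByExpr (14249) were fitted on all 8 libraries with TMM factors and 4 residual degrees of freedom in edgeR 4.0.16 (R 4.3.3). They were called at an adjusted p under 0.05. The groups share an estimate of the spread, yet the HS578T siGpx1 replicates differed most. Chi-square of replicate counts averaged 4.05 per gene there, against 1.96 in HS578T controls, 1.71 in MDA-MB-231 controls and 1.35 in MDA-MB-231 siGpx1 libraries. The p-values for HS578T and for the interaction may therefore be too small. Standard errors are the log2 change over the square root of F. CPM were computed from the rounded counts with TMM-adjusted library totals. All members and GPX1 were named, and for each list and line up to 2 passing genes per direction with a mean of at least 5 CPM, by largest absolute log2 change. Likeness to PHF5A used log2 CPM with a prior count of 2. The pipeline was tested on simulated data. Alternatives used DESeq2 1.42.0, its size factors in edgeR, no filter or 5 CPM in 2 libraries, limma 3.58.1 on log2(TPM + 1), a replicate block, each line alone, and each library left out. 3′ UTRs came from GENCODE 29 (GRCh38) for 91.8% of tested genes. A gene counted as holding a sequence if the 3′ UTR of any of its matched transcripts held it. For members, match positions and 3′ UTR lengths are those of the transcript with the longest 3′ UTR. Some sequence and marker results are not reported here.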

Additional observations from a re-analysis of the deposited data

Results flagged for a closer look

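The change after depletion differed between the lines for 4 members by the interaction test, given as the MDA-MB-231 change minus the HS578T change (edgeR's quasi-likelihood test, Benjamini-Hochberg adjustment over all tested genes). SF3B1 differed by -0.26 (adjusted p = 0.00174) and SF3B3 by -0.29 (adjusted p = 0.00311), both genes rising less in MDA-MB-231. U2AF2 differed by -0.37 (adjusted p = 0.00144), with a rise in HS578T and no call in MDA-MB-231. SF3A1 differed by 0.26 (adjusted p = 0.00504), with siGpx1 libraries below the controls in HS578T and above them in MDA-MB-231. As given above, SF3A1 kept its call in all alternatives, while SF3B1, SF3B3 and U2AF2 lost theirs in some. The HS578T siGpx1 replicates differed most, so these p-values may be too small.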

How the results depend on the processing

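Among 580 values of members under alternatives, 537 kept their direction and call, 30 lost the call, 6 gained one, 4 turned sign and 3 moved. Among 2726 values of the other genes and lists named, 2561 kept theirs. Members lower in HS578T (2) numbered 0 by DESeq2 and 0 to 2 with a library left out. In the interaction, members higher (1) numbered 2 with DESeq2 size factors in edgeR, 3 with at least 5 CPM in 2 libraries and 1 to 2 with a library left out, and members lower (3) numbered 0 to 4. Members lower in the controls (6) numbered 3 by limma on log2(TPM + 1), where SF3B1 and SF3B3 turned to 0.0183 and 0.01, and all genes shifted by a median of 0.172 against 0.0492.

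Over all genes, the 3116 lower in MDA-MB-231 numbered 1937 by DESeq2 and 2033 to 3324 with a library left out, the lowest being without siGpx1 replicate 1 of that line. Interaction calls, 900 higher and 1528 lower, numbered 1251 and 1000 with DESeq2 size factors, 736 and 543 by DESeq2, 1684 and 797 with at least 5 CPM, and 1144 and 994 by limma. With a library left out the lower ones numbered 513 to 1573, the lowest without MDA-MB-231 siGpx1 replicate 1. The split in MDA-MB-231 went from 2950 higher and 3116 lower to 3652 and 2544 with at least 5 CPM. The difference of PHF5A between lines ran from -0.4097 to 0.1749 with a library left out. The cause of these shifts was not tested.

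Replicate deviations of control and siGpx1 libraries with the same number correlated at -0.0348 in HS578T and 0.0545 in MDA-MB-231. Libraries with the same number thus shared no strong deviation. With a lone replicate difference per group, this cannot show whether they were handled together. With a replicate block, 4078 genes were higher and 3148 lower in HS578T, 2920 and 3112 in MDA-MB-231, and the members' counts were 5 and 2, and 6 and 0.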
